A study of Mus musculus with 12 samples.

Results

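Slc7a11, glutathione and NRF2 genes were described in 3D collagen I cultures of 4T1, a line of mouse mammary carcinoma cells. The set was given as a list of gene symbols, drawn up with earlier results of these data known. It holds Slc7a11, Slc3a2, Gclc, Gclm, Gpx4, Hmox1, Nqo1, Txnrd1, Srxn1 and Gsr. These are 10 of the 31017 symbols in the count table, and all 10 passed the filter on low counts that left 12079 genes for testing.

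RNA-seq was done on 12 libraries in 4 groups of 3, which set ETV4 knockout cells against control cells with and without FGF ligands. All groups were nucleofected with Cas9 and kept in collagen I, of either 1.2 mg/ml or of 2.4 mg/ml, in 2% serum. The culture day was 4 for all 12 libraries. In the knockout group with FGF, cells carried an ETV4 guide RNA and had 2 ligands for 4 days, FGF2 (40 ng/ml) and FGF10 (25 ng/ml). In the control group with FGF, cells carried a control guide RNA and received the same ligands. The knockout group without FGF carried the ETV4 guide and the control group without FGF the control guide, neither with added ligand. The labels do not say which collagen concentration a library had, nor whether a pool or 1 clone of knockout cells was used. All 6 knockout library names share 1 tag of unstated meaning, and the effects of 1 clone and of the genotype cannot be told apart. Since no label ties replicates to separate cultures, the spread behind each p-value is that between libraries and may be technical.

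System xc- is a plasma membrane antiporter that takes up cystine in exchange for glutamate. Its transport subunit is encoded by Slc7a11 and its heavy chain, CD98, by Slc3a2. Cystine is reduced to cysteine, from which glutamate-cysteine ligase (catalytic subunit Gclc, modifier subunit Gclm) makes the precursor of glutathione. GPX4 uses glutathione to reduce lipid peroxides and so restrains ferroptosis, an iron-dependent form of cell death, and glutathione reductase, encoded by Gsr, regenerates reduced glutathione. NRF2 is a transcription factor held low by KEAP1 and released by oxidants and electrophiles. Hmox1, Nqo1, Txnrd1, Srxn1, Gclc, Gclm, Gsr and Slc7a11 are textbook NRF2 targets, and Slc7a11 and Slc3a2 are also targets of ATF4, the effector of the amino acid and endoplasmic reticulum stress response.

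The promoter windows of Slc7a11, Srxn1 and Gclm are shown because they hold matches to the binding motifs of these factors. Each is the 250 bases before the RefSeq start, on the gene's strand, from RefSeq on GRCm38.p6, and the capitals mark the matches. The Slc7a11 window is chr3:50443614-50443863 on the minus strand, the Srxn1 window chr2:152105274-152105523 on the plus strand and the Gclm window chr3:122245307-122245556 on the plus strand.
Slc7a11: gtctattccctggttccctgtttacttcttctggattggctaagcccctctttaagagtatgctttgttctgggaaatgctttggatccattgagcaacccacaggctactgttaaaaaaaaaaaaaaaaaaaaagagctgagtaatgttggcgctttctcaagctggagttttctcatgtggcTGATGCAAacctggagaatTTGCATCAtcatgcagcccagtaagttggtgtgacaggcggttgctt
Srxn1: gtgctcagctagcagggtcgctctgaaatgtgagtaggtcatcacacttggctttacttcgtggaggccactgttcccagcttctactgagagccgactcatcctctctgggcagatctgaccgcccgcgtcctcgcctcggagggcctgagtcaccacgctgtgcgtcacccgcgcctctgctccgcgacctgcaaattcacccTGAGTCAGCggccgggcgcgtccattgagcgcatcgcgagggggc
Gclm: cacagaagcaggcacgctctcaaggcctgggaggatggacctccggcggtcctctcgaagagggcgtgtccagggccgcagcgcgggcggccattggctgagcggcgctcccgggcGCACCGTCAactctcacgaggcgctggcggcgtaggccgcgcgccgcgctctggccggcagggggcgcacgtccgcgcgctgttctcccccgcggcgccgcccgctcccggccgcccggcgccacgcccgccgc

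Both strands were searched for 3 motifs. The ATF4 composite motif TGATGNAA occurred in 2 places in the Slc7a11 window, as TGATGCAA at 66 to 59 bases before the start and on the other strand as TTGCATCA at 47 to 40 bases. At least 1 match was present in 3.45% of 32851 mouse promoter windows of this length, and 2 or more in 0.0396%. The NRF2 and small MAF motif TGANTCAGC occurred in the Srxn1 window at 45 to 37 bases before the start, and in 1.02% of all windows. The antioxidant response element core TGACNNNGC occurred in the Gclm window at 134 to 126 bases and in 1 of 3 Txnrd1 windows, and in 10.2% of all windows. This core and TGANTCAGC can match the same bases where N is C. The table held 12 windows of 7 of the 10 genes, and the Slc3a2, Gpx4 and Nqo1 windows held none of the 3 motifs. Gclc, Hmox1 and Gsr had no window in the table. A match in these letters is a description of the window only.

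Library totals ran from 18229429 to 23193244 counts. Knockout and control libraries lay apart on principal component 1 (71.4% of the variance), and component 2 (10.4%) set apart the library labelled knockout replicate 2 from the other 11. On component 1 that library lay with the knockout libraries, at 46.5, where the control libraries lay at -45.3 to -39.6. Its share of counts on ribosomal protein genes was 6.74%, while knockout replicates 1 and 3 had 4.96% and 5.20%. Etv4 RNA was at 113 to 120 CPM (counts scaled by library size with TMM) in knockout with FGF and 154 to 173 in control with FGF. Without FGF it was at 116, 159 and 116 CPM in knockout replicates 1, 2 and 3 and at 162 to 168 in control. The library labelled knockout replicate 2 thus lay just below the control libraries without FGF and within the range of those with FGF. The guide's position is not in the sources used here, and loss of the protein does not require loss of the RNA, so this level checks the labels only in part. For the 10 genes, the knockout effects without FGF and the FGF effects named in knockout cells are therefore also given without it, as are the counts and medians of the gene lists in knockout against control cells without FGF. Of 8 epithelial carcinoma markers, all but Krt5 were detected, at summed levels of 3896 to 3990 CPM in knockout with FGF, 4953 to 5472 in control with FGF, 4316 to 5791 in knockout without FGF and 4953 to 5041 in control without FGF. Fibroblast markers summed to 8.06 to 15.3 CPM over all libraries, nearly all of it Pdgfra, with Pdgfrb, Thy1, Lum and Dcn at 0. Leukocyte markers summed to 5.91 to 10.5 CPM, nearly all of it Cd68, with Adgre1 and Cd3e at 0, and endothelial and adipocyte markers each summed to at most 0.724 CPM. The part of the marker shift in the results below was not tested.

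RNAs of the set moved unevenly with the knockout. Hmox1 and Nqo1 rose the most and Srxn1, Gclm and Slc3a2 by smaller factors, with or without FGF, while Gsr fell, and Gclc and Txnrd1 were not called in either setting. Slc7a11 rose in knockout against control cells with FGF and fell in knockout against control cells without FGF.

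Without FGF, 6 of the 10 genes rose and 2 fell in knockout against control cells. Called genes have a Benjamini-Hochberg adjusted p under 0.05 in edgeR's quasi-likelihood test over all 12079 genes. Over all tested genes, 22.5% rose and 23.3% fell. The median log2 fold change of the 10 genes was 0.43, and that of all tested genes was -0.01. Leaving out the library labelled knockout replicate 2 left the same 6 genes higher and the same 2 lower, with a median of 0.28, where 26.3% of tested genes rose and 28.2% fell.

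With FGF, 6 of the 10 genes rose and 1 fell in knockout against control cells, where 18% of tested genes rose and 22.2% fell. The median log2 fold change of the 10 genes was 0.46, against -0.01 over all tested genes. This comparison uses none of the libraries of the one without FGF, but the library labelled knockout replicate 2 enters its estimate of the spread. Fitted without that library, 8 genes rose and 1 fell, the additional calls being Gpx4 and Txnrd1, where 28.1% of tested genes rose and 30.5% fell.

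**Figure D1:**
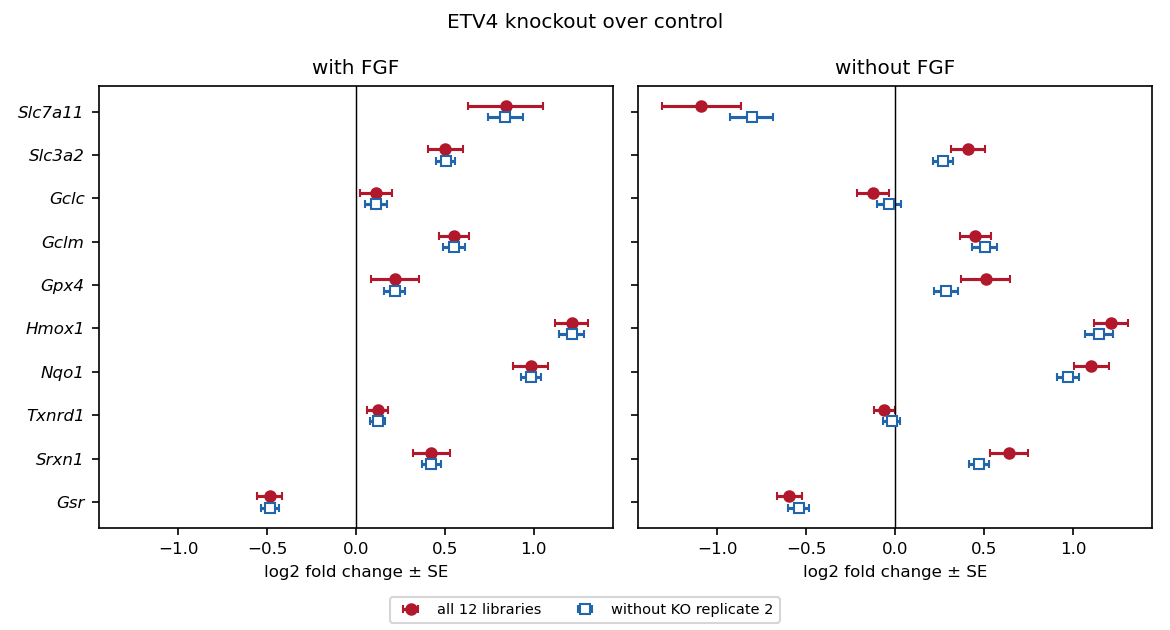
Log2 fold change of each gene in ETV4 knockout over control cells, with FGF (left) and without FGF (right), with its standard error. Filled circles use all 12 libraries and open squares leave out knockout replicate 2; Slc7a11 lies at 0.84 with FGF and at -1.09 without, and Hmox1 at 1.21 in both panels.

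Slc7a11 (chr3:49892526-50443614, minus strand, mm10 coordinates from GENCODE vM21 here and for the other genes) encodes the cystine-carrying subunit. It was at 31.6, 27.7 and 29.2 CPM in knockout with FGF (replicates 1 to 3), against 18.9, 14.5 and 15.9 CPM in control with FGF. Without added ligand it was at 11.0, 5.10 and 12.1 CPM in knockout, against 22.3, 17.9 and 20.6 CPM in control. All 3 knockout libraries lay above all 3 control libraries with FGF and below them without FGF, and replicate 2 was the lowest knockout library. These levels rest on 524 to 676 counts per library in knockout with FGF, 288 to 452 in control with FGF, 85 to 260 in knockout without FGF and 378 to 475 in control without FGF. In bulk RNA, fewer cells that express a gene and less of its RNA per cell cannot be told apart.

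With FGF the log2 fold change of Slc7a11 in knockout over control was 0.84 (SE 0.21, edgeR adjusted p = 0.00645), a 1.79-fold rise. Without FGF it was -1.09 (SE 0.22, edgeR adjusted p = 0.00156), a level 0.470 times that of control. Leaving out the library labelled knockout replicate 2 gave -0.81 (SE 0.12, edgeR adjusted p = 6.35e-06), or 0.572 times control, so the fall does not rest on the lowest library. Leaving out each of the 12 libraries in turn gave 0.77 to 0.96 with FGF and -1.31 to -0.81 without, and every one of these fits was called. The Slc7a11 locus overlaps the same-strand transcript Gm37498 and the antisense gene Gm37854, and the strand setting of the counting is not given in the sources used here.

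Slc3a2 (chr19:8706882-8723369, minus strand), the heavy chain that Slc7a11 shares with other amino acid transporters, was at 169, 165 and 161 CPM in knockout with FGF, against 111, 121 and 117 CPM in control with FGF. Without the ligands it was at 146, 192 and 147 CPM in knockout, against 128, 117 and 120 CPM in control. The knockout libraries were the higher ones in both settings with no overlap. The rise was 0.50 with FGF (SE 0.10, edgeR adjusted p = 0.00117) and 0.41 without FGF (SE 0.10, edgeR adjusted p = 0.00402) on the log2 scale, and the value without FGF was 0.27 without the library labelled knockout replicate 2. The heavy chain thus rose in the setting in which Slc7a11 RNA fell.

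**Figure D2:**
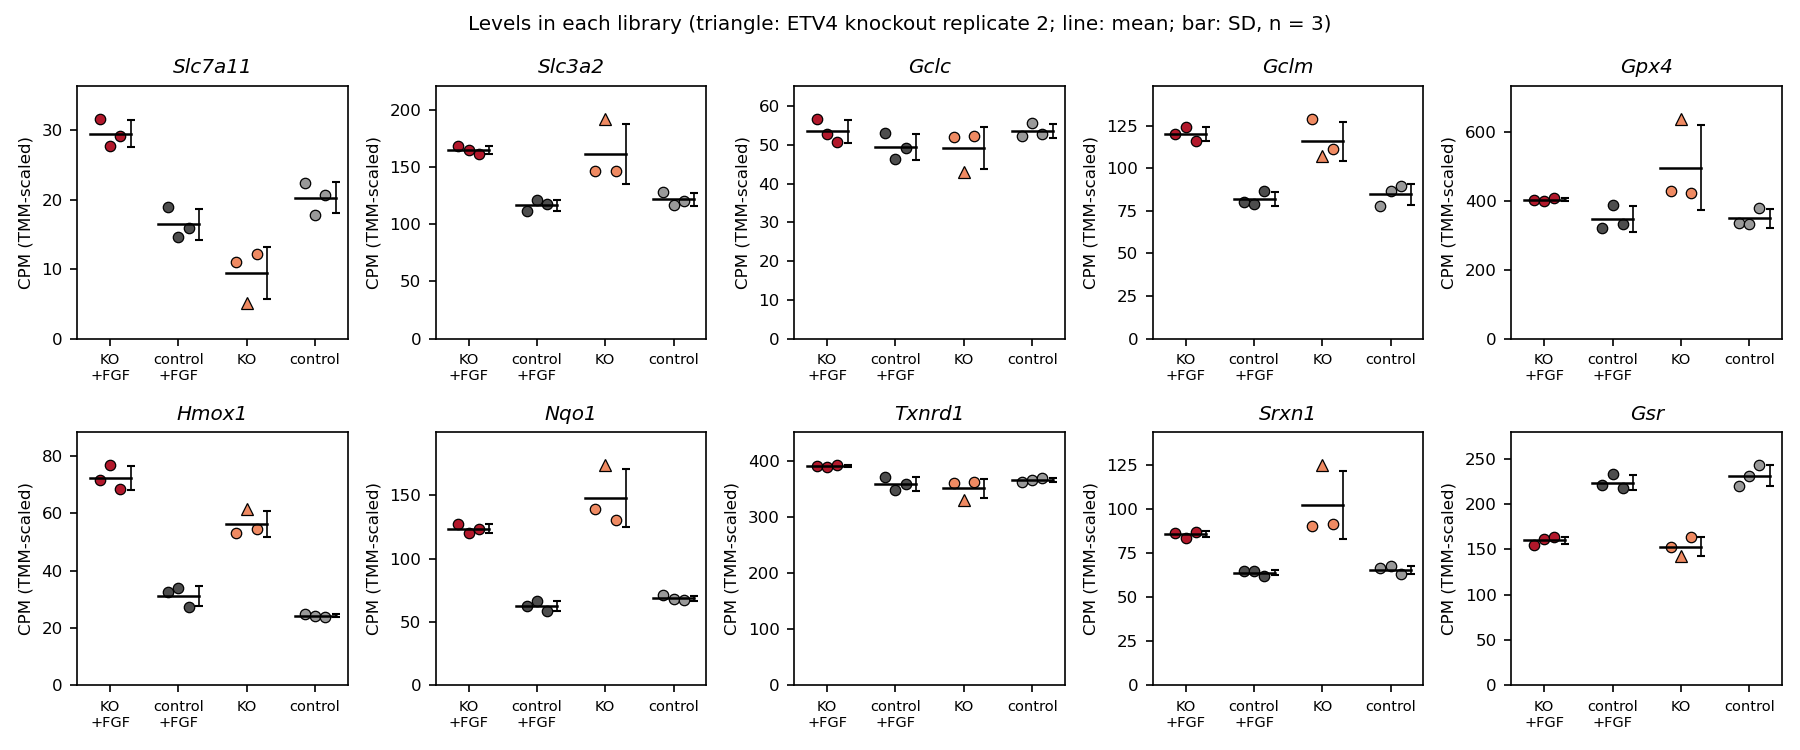
CPM (TMM-scaled) of the 10 genes in every library, in the order knockout with FGF, control with FGF, knockout and control, on axes that start at 0. Slc7a11 is the gene whose knockout libraries lie above control with FGF and below control without FGF by wide margins; the triangle, knockout replicate 2, is the lowest library for Slc7a11 at 5.10 CPM and the highest for Gpx4 at 639 CPM.

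The subunits of glutamate-cysteine ligase differed. Gclm (chr3:122245557-122270732, plus strand), the modifier subunit, was at 120, 124 and 116 CPM in knockout with FGF, against 80.0, 78.9 and 86.6 CPM in control with FGF. In cells without FGF it was at 129, 107 and 111 CPM in knockout, against 77.7, 86.8 and 89.6 CPM in control. All knockout libraries lay above all control libraries, and Gclm rose by 0.55 with FGF (SE 0.09, edgeR adjusted p = 0.000217) and by 0.45 without FGF (SE 0.09, edgeR adjusted p = 0.000878). The value without FGF was 0.50 when the library labelled knockout replicate 2 was left out. Gclc (chr9:77754535-77794485, plus strand), the catalytic subunit, was at 50.8 to 56.7 CPM in knockout with FGF and 46.3 to 53.0 in control with FGF. Without FGF it was at 42.9 to 52.4 CPM in knockout and 52.4 to 55.6 in control. Its groups overlapped in both settings, and its log2 fold changes of 0.11 with FGF and -0.12 without FGF were not called. Their 95% intervals were -0.08 to 0.31 and -0.32 to 0.07, and the value without FGF was -0.04 without the library labelled knockout replicate 2, again not called. Gclm overlaps the antisense gene Gm17494 and the same-strand pseudogene Gm6061.

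Gpx4 (chr10:80047166-80056439, plus strand), the lipid peroxide reductase, was at 402, 401 and 410 CPM in knockout with FGF, against 322, 390 and 332 CPM in control with FGF. Without added ligand it was at 430, 639 and 422 CPM in knockout, against 335, 333 and 380 CPM in control. The knockout libraries were higher in both settings, and the library labelled knockout replicate 2 stood 0.59 on the log2 scale above the mean of replicates 1 and 3. The rise without FGF was 0.51 (SE 0.14, edgeR adjusted p = 0.00814), and 0.29 without that library (edgeR adjusted p = 0.000882). With FGF the log2 fold change was 0.22 (SE 0.14) and was not called over all 12 libraries (edgeR adjusted p = 0.225). It had the same size and was called once that library was left out of the fit (SE 0.06, edgeR adjusted p = 0.00334).

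Gsr (chr8:33652523-33698163, plus strand), which regenerates glutathione from its oxidized form with NADPH, fell in knockout cells in both settings. It was at 155, 161 and 163 CPM in knockout with FGF, against 221, 233 and 218 CPM in control with FGF. Without the ligands it was at 153, 142 and 164 CPM in knockout, against 220, 231 and 243 CPM in control. The highest knockout library was below the lowest control library in both settings. Gsr fell, with log2 fold changes of -0.49 with FGF (SE 0.07, edgeR adjusted p = 0.000143) and -0.59 without FGF (SE 0.07, edgeR adjusted p = 2.64e-05), or -0.54 without the library labelled knockout replicate 2. The locus holds the small nucleolar RNA gene Gm24727.

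Hmox1 (chr8:75093621-75100589, plus strand), heme oxygenase 1, which breaks down heme, rose the most of the 10 genes in each setting. It was at 71.7, 76.7 and 68.5 CPM in knockout with FGF, against 32.3, 33.9 and 27.3 CPM in control with FGF. In cells without FGF it was at 53.1, 61.6 and 54.4 CPM in knockout, against 24.8, 24.1 and 23.9 CPM in control. Every knockout library exceeded every control library by a wide margin. The rise was 2.32-fold in each setting, a log2 fold change of 1.21 with FGF (SE 0.09, edgeR adjusted p = 4.63e-07) and 1.21 without FGF (SE 0.09, edgeR adjusted p = 5.45e-07), the second being 2.21-fold without the library labelled knockout replicate 2. Of all tested genes, 8.22% had a larger log2 fold change in either direction with FGF and 8.32% without.

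Nqo1 (chr8:107388225-107403206, minus strand), NAD(P)H quinone dehydrogenase 1, was at 128, 120 and 123 CPM in knockout with FGF, against 62.5, 66.7 and 58.6 CPM in control with FGF. Without FGF it was at 139, 174 and 130 CPM in knockout, against 71.0, 67.9 and 67.2 CPM in control. The groups were again apart, and the rise was 1.98-fold with FGF (log2 0.98, SE 0.10, edgeR adjusted p = 5.5e-06) and 2.15-fold without FGF (log2 1.10, SE 0.10, edgeR adjusted p = 2.06e-06). Without the library labelled knockout replicate 2 the second value was 1.96-fold.

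Srxn1 (chr2:152105516-152111376, plus strand), sulfiredoxin, which reactivates overoxidized peroxiredoxins, was at 86.3, 83.5 and 86.9 CPM in knockout with FGF, against 64.9, 64.6 and 61.9 CPM in control with FGF. Without added ligand it was at 90.3, 125 and 91.5 CPM in knockout, against 66.2, 67.3 and 62.9 CPM in control. Its knockout libraries lay above control in both settings, with the library labelled knockout replicate 2 far above the other knockout libraries. The log2 rise was 0.42 with FGF (SE 0.11, edgeR adjusted p = 0.00607) and 0.64 without FGF (SE 0.11, edgeR adjusted p = 0.000323), and 0.47 for the second without that library. Srxn1 is the member whose window holds the TGANTCAGC match shown above, and whether that match bears on the rise was not tested.

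Txnrd1 (chr10:82833951-82897712, plus strand), the cytosolic thioredoxin reductase and a selenoprotein, spanned a narrow range. It was at 392, 389 and 392 CPM in knockout with FGF, against 372, 348 and 359 CPM in control with FGF. Without the ligands it was at 360, 331 and 362 CPM in knockout, against 363, 367 and 369 CPM in control. The knockout libraries lay above control with FGF and just below control without FGF. The log2 fold changes of 0.12 with FGF (SE 0.06, edgeR adjusted p = 0.122) and -0.06 without FGF (SE 0.06, edgeR adjusted p = 0.431) were not called. The value with FGF was called once the library labelled knockout replicate 2 was left out (0.12, SE 0.04, edgeR adjusted p = 0.0146), while the value without FGF was then -0.02 and not called. Txnrd1 overlaps the same-strand gene Eid3.

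Levels can be set side by side between genes only per length. In control cells without FGF, Gpx4 had the highest CPM per kb of exon at 203 ± 15.6 (SD, n = 3), followed by Gsr at 84.0 ± 4.18, Txnrd1 at 51.7 ± 0.42, Nqo1 at 44.3 ± 1.31, Slc3a2 at 34.4 ± 1.61 and Srxn1 at 23.2 ± 0.81. Gclc at 14.2 ± 0.47, Hmox1 at 13.9 ± 0.26 and Gclm at 13.5 ± 0.99 did not differ beyond their spread, and Slc7a11 was lowest at 1.46 ± 0.16. In knockout cells with FGF, Hmox1 stood at 41.3 ± 2.37 CPM per kb and Slc7a11 at 2.12 ± 0.14. The Slc7a11 gene model is long, 13922 bases of exon, so its value per kb is a low estimate if shorter transcripts are the ones used, which was not tested.

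FGF changed Slc7a11 in knockout cells. In knockout cells, Slc7a11 rose 3.10-fold with FGF against no FGF (log2 1.63, SE 0.22, edgeR adjusted p = 0.00176), and the lowest library with FGF, at 27.7 CPM, was above the highest without, at 12.1 CPM. Only 0.753% of tested genes had a larger log2 fold change in either direction. It was the 1 member of 10 called, where 2.42% of tested genes were called in either direction. An unadjusted p under 0.05 was reached by 6 members, a level not counted over all tested genes, here or below. Among the 6, Gpx4, Nqo1 and Srxn1 were lower with FGF, at -0.30, -0.25 and -0.25 on the log2 scale. Without the library labelled knockout replicate 2 they were at -0.07, -0.12 and -0.09. Slc7a11 then rose 2.55-fold (log2 1.35, SE 0.12, edgeR adjusted p = 5.76e-08). Hmox1 was then also called at 0.43 (edgeR adjusted p = 0.000715), where 7.76% of tested genes were called. In a fit on the 6 knockout libraries alone the rise had the same size but was not called (log2 1.65, edgeR adjusted p = 0.0931).

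In control cells FGF moved no member past the threshold. The count was 0 of 10 in edgeR, where 0.488% of tested genes were called, 1 in DESeq2 and 0 in limma-voom. An unadjusted p under 0.05 in edgeR was reached by 1 member. Slc7a11 averaged 16.4 ± 2.24 CPM in control with FGF and 20.3 ± 2.26 CPM in control without FGF (SD, n = 3 each), and these libraries overlapped. Its log2 fold change was -0.30, with a 95% interval of -0.76 to 0.16. Hmox1 averaged 31.2 ± 3.47 CPM in control with FGF and 24.3 ± 0.45 CPM in control without FGF, and its groups did not overlap. Its log2 fold change of 0.36 (SE 0.09) was close to its 0.36 in knockout cells and was not called (edgeR adjusted p = 0.211). It was called without the library labelled knockout replicate 2 (edgeR adjusted p = 0.00611), where 2.8% of tested genes were called.

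The difference between the knockout effects with and without FGF was tested as an interaction. For Slc7a11 it was 1.93 on the log2 scale (SE 0.31, 95% interval 1.27 to 2.60), and 0.613% of tested genes had a larger one. Its edgeR adjusted p over all 12 libraries was 0.0635, above the threshold. No member was called, where 0.0166% of tested genes were called. An unadjusted p under 0.05 was reached by 2 members. DESeq2 and limma-voom each called 1 member, Slc7a11 (adjusted p = 1.06e-05 in DESeq2 and 0.0483 in limma-voom). Without the library labelled knockout replicate 2 it was 1.65 (SE 0.16, edgeR adjusted p = 2.02e-06), and 0.981% of tested genes were called. Over the fits that left out 1 library each, the difference was 1.65 to 2.16 and its edgeR adjusted p was 2.02e-06 to 0.262, past the threshold only without knockout replicate 2 or knockout replicate 3 of the groups without FGF. The other 9 members had differences between -0.29 and 0.23, or between -0.07 and 0.23 without knockout replicate 2, none called in either fit.

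**Figure D3:**
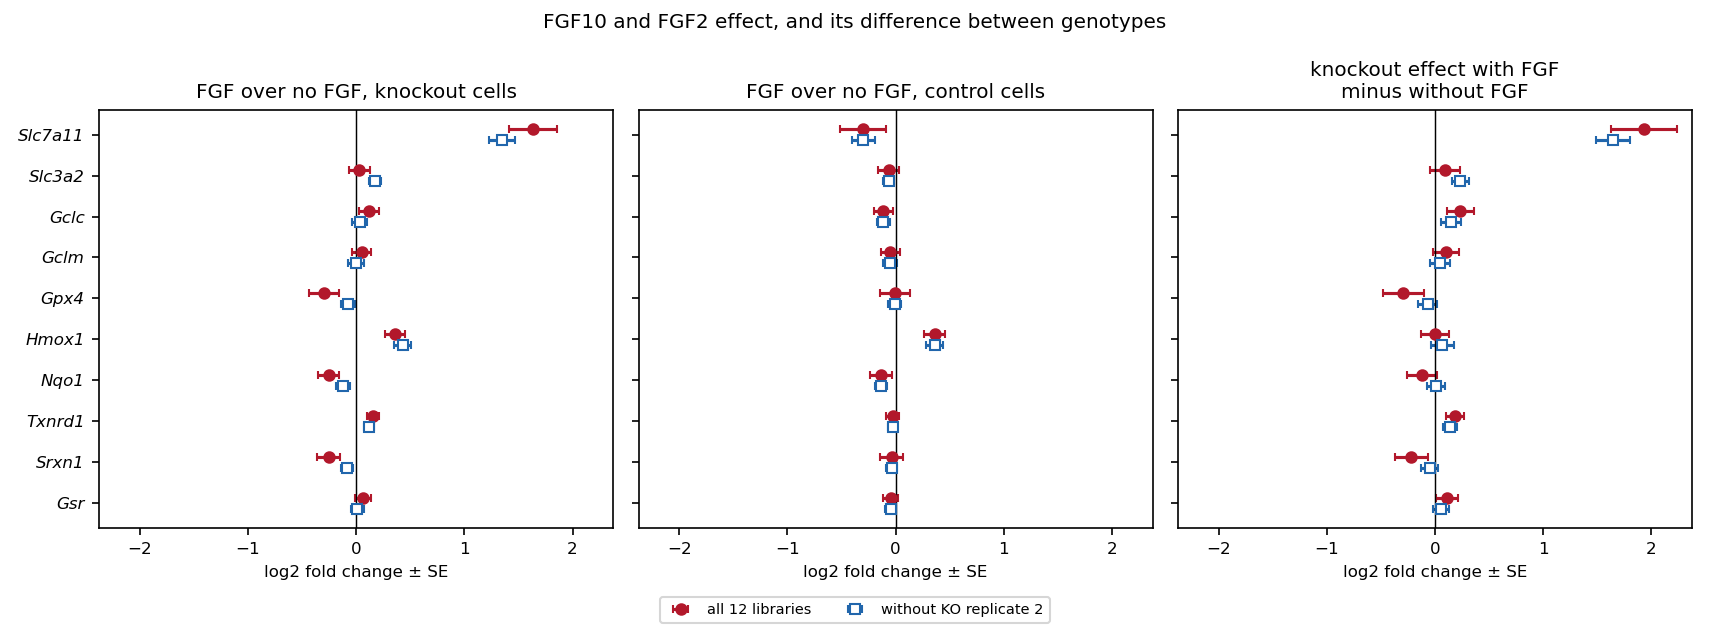
Log2 fold change with FGF over without FGF in knockout cells (left) and control cells (middle), and the difference of the knockout effects with and without FGF (right), each with its standard error. Slc7a11 lies at 1.63, -0.30 and 1.93 in the 3 panels, apart from the other 9 genes; open squares leave out knockout replicate 2.

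The 10 genes departed unequally in the library labelled knockout replicate 2. Relative to the mean of knockout replicates 1 and 3, Slc7a11 stood at -1.17 on the log2 scale, whereas Gpx4 stood at 0.59, Srxn1 at 0.45, Slc3a2 at 0.39, Nqo1 at 0.37 and Hmox1 at 0.20. Across 11955 tested genes with an exon length, the departure had a Spearman correlation of -0.47 with length, a description across genes of 1 library. The same measure, against the mean of the other libraries of the group, was -0.38 in control with FGF replicate 2 and between -0.19 and 0.41 in the other 10 libraries. Control with FGF replicate 2 was also the lowest library of its group for Slc7a11, at 14.5 CPM, and the highest for Gpx4, at 390 CPM. Without it the knockout effect on Slc7a11 with FGF was 0.77 (edgeR adjusted p = 0.0365). The median departure was 0.41 in the decile of shortest genes (median length 1231 bases) and -0.47 in the decile of longest genes (median length 12363 bases). Hmox1, Nqo1, Gpx4, Srxn1 and Slc3a2 have 1751, 1553, 1724, 2820 and 3529 bases of exon, and Slc7a11 has the most of the 10 genes. Gsr and Gclc, of 2754 and 3766 bases, stood at -0.16 and -0.28. Etv4, of 3104 bases, stood at 0.45. The cause of the departure was not tested.

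**Figure D4:**
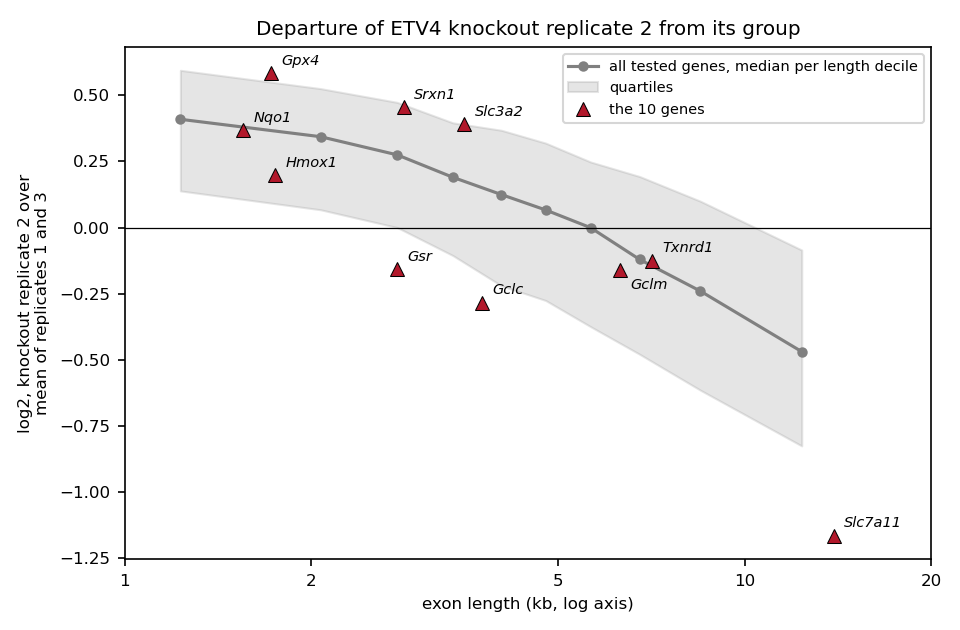
Departure of knockout replicate 2 from the mean of knockout replicates 1 and 3 (log2, vertical) against exon length (kb, log axis), for the 10 genes (triangles) and for all tested genes by deciles of length (median as a line, quartiles as a band). Slc7a11, the longest of the 10, lies lowest at -1.17, and Gpx4 lies highest at 0.59.

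The wider pathway was described through 8 lists with 134 distinct tested genes, whose calls were counted in the same fits. In knockout against control with FGF, 38 rose and 34 fell, where 18% and 22.2% of all tested genes did. Without FGF, 49 rose and 34 fell, where 22.5% and 23.3% of all tested genes did. FGF changed 13 of the 134 in knockout cells, 7 of them upward, where 2.42% of all tested genes were called. In control cells FGF changed 1 of the 134, where 0.488% of all tested genes were called. At an unadjusted p under 0.05 there were 12, a level not counted over all tested genes. Without the library labelled knockout replicate 2, the knockout counts were 52 up and 39 down with FGF, where 28.1% and 30.5% of all tested genes moved, and 51 up and 37 down without FGF, where 26.3% and 28.2% did. The FGF counts were then 18 up and 9 down in knockout cells, where 7.76% of all tested genes were called, and 2 up and 4 down in control cells, where 2.8% were. A listed gene named below in 1 setting only was not among the 4 called genes of smallest adjusted p in the other. It may have changed there too.

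NRF2's own regulators and partners did not move together. Of 10 genes, 1 rose and 5 fell with FGF, where 18% of all tested genes rose and 22.2% fell. Without FGF 1 rose and 4 fell, where 22.5% of all tested genes rose and 23.3% fell. The list medians were -0.15 and 0.01. Without the library labelled knockout replicate 2, 2 rose and 5 fell in cells without FGF, with a median of -0.10. Mafk, a small MAF partner of NRF2, rose by 0.24 with FGF (edgeR adjusted p = 0.0264) and by 0.70 without FGF (edgeR adjusted p = 1.64e-05), and FGF lowered it in knockout cells, with a log2 fold change of -0.36 (edgeR adjusted p = 0.0323). The difference between its knockout effects was not called (edgeR adjusted p = 0.28). Mafg, another small MAF protein, fell, by log2 fold changes of -0.30 with FGF and -0.41 without FGF. Bach1, a repressor that competes with NRF2 at antioxidant response elements, fell, by log2 fold changes of -0.56 with FGF and -0.66 without FGF. Nfe2l1, a relative of NRF2, fell, by log2 fold changes of -0.22 with FGF and -0.33 without FGF. Sqstm1, which binds KEAP1, fell too, by log2 fold changes of -0.45 with FGF and -0.40 without FGF. Without the library labelled knockout replicate 2, the values without FGF were 0.62 for Mafk and -0.36 for Mafg. They were then -0.48 for Bach1, -0.36 for Nfe2l1 and -0.56 for Sqstm1. The RNA of NRF2 itself, Nfe2l2, averaged 94.9 CPM in knockout with FGF, 90.9 in control with FGF, 103 in knockout without FGF and 91.1 in control without FGF, and was not called in either setting. Without the library labelled knockout replicate 2 it was called in cells without FGF, at a log2 fold change of 0.19 (edgeR adjusted p = 0.00962). Keap1 was at 121, 114, 133 and 115 CPM in the same groups and was not called either. Nfe2l2 and Keap1 fall outside the rule for named genes and were added after their values were seen.

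Among the other glutathione genes, changes were large and went both ways. Of 29 tested, 11 rose and 9 fell with FGF, where 18% of all tested genes rose and 22.2% fell. Without FGF 13 rose and 11 fell, where 22.5% of all tested genes rose and 23.3% fell. The list medians were 0.06 and 0.15. With 11 libraries, leaving out knockout replicate 2, 12 rose and 10 fell in each setting, and the median without FGF changed sign, to -0.06. Mgst1, a membrane-bound glutathione transferase, was at 0.982, 1.11 and 1.08 CPM in knockout with FGF, against 13.9, 12.5 and 14.1 CPM in control with FGF. In cells without FGF it was at 2.17, 2.46 and 1.31 CPM in knockout, against 15.9, 15.2 and 14.9 CPM in control. No knockout library came near the control libraries, and its log2 fold changes were -3.67 with FGF and -2.97 without. Gstm2, of the mu class, fell, by log2 fold changes of -3.43 with FGF and -2.76 without FGF. Gsta1, of the alpha class, rose by 2.93 with FGF and 3.15 without FGF, the second on 270 counts in the 3 knockout libraries and 33 in the 3 control libraries. Chac1, which degrades glutathione, rose by 1.62 with FGF and 1.71 without FGF. Abcc4, an exporter that carries glutathione conjugates, rose by 1.56 with FGF and 0.98 without FGF. Glutathione transferases form multigene families whose members can share reads, so their values are uncertain.

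Other NRF2 targets also went both ways. Of 25 tested, 4 rose and 11 fell with FGF, where 18% of all tested genes rose and 22.2% fell. Without FGF 9 rose and 7 fell, where 22.5% of all tested genes rose and 23.3% fell. The count that rose with FGF and the count that fell without FGF were near these shares. The list medians were -0.14 and 0.07. With the library labelled knockout replicate 2 left out, 7 rose and 11 fell with FGF, and 9 rose and 9 fell without FGF, with a median of 0.03 for the second. Slc48a1, a heme transporter, rose by 1.27 with FGF and 1.49 without FGF, and Fth1, the ferritin heavy chain that stores iron, rose by 0.91 with FGF and 1.26 without FGF. Aox1, aldehyde oxidase, fell, by log2 fold changes of -1.68 with FGF and -1.82 without FGF, and Cbr1, a carbonyl reductase, fell, by log2 fold changes of -2.16 with FGF and -1.60 without FGF. Fth1 has processed pseudogenes, and how the counting split such reads is not given in the sources used here.

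In the thioredoxin, peroxiredoxin, sestrin and glutathione peroxidase families, 3 of 15 rose and 1 fell with FGF, where 18% of all tested genes rose and 22.2% fell. Without FGF 7 rose and 2 fell, where 22.5% of all tested genes rose and 23.3% fell. The list medians were -0.03 and 0.23. With the library labelled knockout replicate 2 left out, 6 rose and 4 fell with FGF, and 7 rose and 2 fell without FGF, with a median of 0.13 for the second. Prdx5, a peroxiredoxin, was at 603, 629 and 635 CPM in knockout with FGF, against 160, 185 and 162 CPM in control with FGF. Without FGF it was at 435, 759 and 464 CPM in knockout, against 130, 141 and 160 CPM in control. The groups were far apart, with log2 fold changes of 1.88 with FGF and 1.94 without, the second being 1.65 without the library labelled knockout replicate 2. Txnip, an inhibitor of thioredoxin, fell, by log2 fold changes of -1.24 with FGF and -1.18 without FGF, and Sod2, the mitochondrial superoxide dismutase, rose by 0.54 with FGF and 0.55 without FGF. Sesn1, a sestrin, rose by 0.49 with FGF, and Txnrd3, a relative of Txnrd1, fell by 0.54 without FGF. In the selenoprotein list, to which Gpx4 and Txnrd1 are related as selenoproteins, the 3 genes called of 13 rose in each setting, where 18% of all tested genes rose with FGF and 22.5% without FGF, so the share was near the background. Leaving out knockout replicate 2, 4 rose and none fell in each setting, with a median without FGF of 0.04, against 0.08 with that library. Sephs2, which makes the selenium donor, rose by 0.40 with FGF and 0.51 without FGF.

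Of 19 other ferroptosis genes, 6 rose and 2 fell with FGF, where 18% of all tested genes rose and 22.2% fell. Without FGF 6 rose and 3 fell, where 22.5% of all tested genes rose and 23.3% fell. The list median was 0.07 in each setting. When knockout replicate 2 was left out, 8 rose and 2 fell with FGF, and 7 rose and 3 fell without FGF, with a median of 0.09 for the second. Acsl4, which activates polyunsaturated fatty acids for membrane lipids, fell by 1.07 without FGF, or by a log2 fold change of -0.82 without the library labelled knockout replicate 2. Fdft1, squalene synthase, rose by 0.60 with FGF and 0.83 without FGF, and Sat1, a polyamine acetyltransferase, rose by 0.86 with FGF and 0.57 without FGF. Slc40a1, the iron exporter ferroportin, fell by 3.00 with FGF, on 7 counts in the 3 knockout libraries and 63 in the 3 control libraries. A further list held CD98 light chains and carriers of cystine, glutamate or neutral amino acids, Slc38a2 among them. Of its 9 tested genes, 3 rose and 2 fell with FGF, and 3 rose and 4 fell without FGF. The shares of all tested genes are those given above for the ferroptosis list. The medians of the 9 genes were 0.22 and -0.31. Leaving out the library labelled knockout replicate 2 gave 5 higher and 3 lower with FGF, and 3 higher and 4 lower without FGF, where the median was then -0.10. Slc7a5, the LAT1 light chain that also pairs with Slc3a2, rose by 0.53 with FGF and 0.29 without FGF. Ctns, the lysosomal cystine exporter, fell, by log2 fold changes of -0.81 with FGF and -1.23 without FGF.

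In the ATF4 pathway, which shares Slc7a11 and Slc3a2 as targets, 7 of 14 rose and 4 fell with FGF, where 18% of all tested genes rose and 22.2% fell. Without FGF 7 rose and 3 fell, where 22.5% of all tested genes rose and 23.3% fell. The list medians were 0.24 and 0.27. Leaving out the library labelled knockout replicate 2 gave 9 higher and 5 lower with FGF and 7 higher and 5 lower without FGF, of 15 genes that passed the filter in that fit, with a median of 0.13 for the second. Atf4 itself rose by 0.45 without FGF (edgeR adjusted p = 0.000915). It was at 272, 345 and 293 CPM in knockout without FGF (replicates 1 to 3), against 233, 216 and 219 CPM in control without FGF. With FGF, Atf4 was also higher, at 254, 277 and 269 CPM in knockout and 207, 223 and 212 CPM in control. Whether ATF4 bears on the Slc7a11 changes was not tested. Asns, asparagine synthetase, rose by 0.50 with FGF and 0.54 without FGF. Trib3, a pseudokinase, rose by 1.14 with FGF, at 13.6, 12.5 and 13.4 CPM in knockout with FGF, against 6.19, 6.97 and 4.72 CPM in control with FGF. Ddit4 and Nupr1, stress-induced genes, fell, by log2 fold changes of -0.82 and -0.92 with FGF and -1.07 and -1.13 without FGF. In knockout cells FGF raised Trib3 by 0.77 and Mthfd2, a mitochondrial folate enzyme, by 0.40. Atf3, a stress-induced transcription factor, fell with FGF, with log2 fold changes of -0.79 in knockout cells and -0.78 in control cells. In knockout cells Atf3 was at 189, 250 and 188 CPM without FGF (replicates 1 to 3) and 108, 129 and 126 CPM with FGF. The library labelled knockout replicate 2 thus raised the mean from which knockout cells fell.

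**Figure D5:**
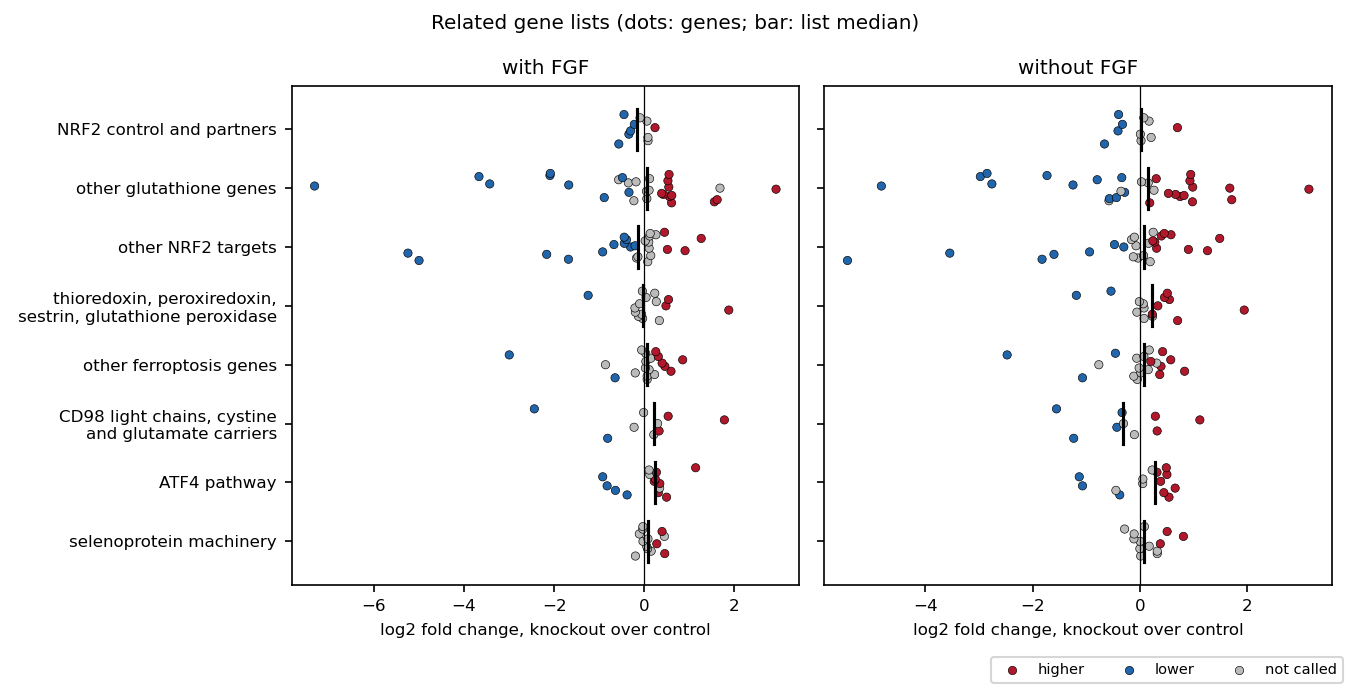
Log2 fold change in knockout over control of each tested gene in the 8 lists, with FGF (left) and without FGF (right), coloured by call, with the list median as a bar. Called genes lie on both sides of 0 in every list except the selenoprotein list, where they lie on the right; Gstk1, Akr1c13 and Cbr3, the farthest left, have 0 to 3 counts in a knockout group, so their positions depend on the fit's prior count.

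Levels across the 12 libraries were compared by Pearson correlation of log2 CPM over 10092 genes, with predicted or unnamed genes left out. Among the genes most like Slc7a11 were Atp2b1 (0.95), Slc38a2 (0.95), Mtf2 (0.94) and Cbll1 (0.94). Without the library labelled knockout replicate 2 these values were 0.88, 0.90, 0.87 and 0.86 over 11 libraries. Slc38a2, a neutral amino acid transporter, averaged 356 CPM in knockout with FGF, 289 in control with FGF, 244 in knockout without FGF and 302 in control without FGF. Its group means stood in the same order as those of Slc7a11. Most like Hmox1 were Hsd17b12 and Ndrg1 (0.996 and 0.994), Prl2c3 and Sh2d1b1 (0.989 each) and Plaur (0.988). Ndrg1 averaged 750 CPM in knockout with FGF, 281 in control with FGF, 587 in knockout without FGF and 228 in control without FGF. All these values share the same libraries and groups and are descriptions only.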

How the data were processed

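Gene RNA was measured in 12 libraries from a stranded polyA kit. The deposited table holds the authors' raw counts per gene symbol, not normalized. Tools named in the submitters' processing notes are STAR 2.7.9a, FastQC 0.11.9, R 4.1.1 and featureCounts, and builds are mm10, the mouse one, and hg38. How strand and multi-mapping reads were handled is not given in the sources used here.

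Library totals were 18229429 to 23193244 counts, and precision is lowest for the gene with the fewest counts, Slc7a11. In R 4.3.3, genes were filtered with filterByExpr by group, scaled by TMM and tested with edgeR 4.0.16's quasi-likelihood F-test on 4 group means over all 12 libraries, with 8 residual degrees of freedom and Benjamini-Hochberg adjustment over 12079 genes. Tests were two-sided. The standard error is the log2 fold change over the square root of F. Alternatives were DESeq2 1.42.0, limma-voom (limma 3.58.1), scaling by RLE or upper quartile, no filter, CPM above 1 in 6 or more libraries, a replicate block, the compared libraries alone and leaving out each library; leaving out 2 libraries together was chosen after seeing the data. The fit was tested on simulated data. Exon lengths came from GENCODE vM21 and promoter windows of 250 bases from RefSeq. The members, lists and tests were chosen with earlier results of these data known. Named genes were the members and up to 4 called genes with the smallest adjusted p per list and comparison. Also named were the 5 genes most like Slc7a11 and Hmox1 whose log2 CPM averaged 1 or more, leaving out predicted or unnamed genes. Of these, 1 is not reported here. No library was left unassigned.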

Additional observations from a re-analysis of the deposited data

Results flagged for a closer look

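Members were flagged if their interaction was called or if their libraries separated in opposite directions between settings. The separations given here therefore restate that rule, and the share of all tested genes that separate so was not counted. For Slc7a11 the knockout effect went in opposite directions with and without FGF. The difference was 1.93 on the log2 scale (SE 0.31), with all 3 knockout libraries above control with FGF and all 3 below control without FGF. Its edgeR adjusted p was 0.0635, and 2.02e-06 without the library labelled knockout replicate 2.

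For Txnrd1 the libraries also separated in opposite directions. The difference was 0.18 on the log2 scale, with a 95% interval of 9.5e-05 to 0.36, and it was not called (edgeR adjusted p = 0.485), nor without the library labelled knockout replicate 2, where it was 0.14 (edgeR adjusted p = 0.323).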

How the results depend on the processing

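The knockout counts, 7 of 10 members with FGF and 8 without, stayed within 1.5 times under every alternative run, and no member's direction reversed past a threshold. The counts for the interaction and for FGF moved by more than 1.5 times. For the interaction, 2 genes and 0 members were called; the values were 60 genes and 1 member in DESeq2, 4 and 1 in limma-voom, 8 and 1 with no filter, and 0 to 120 genes and 0 to 1 member leaving out 1 library each. With the replicate block 1 member was called, Slc7a11. For FGF in control cells, 59 genes and 0 members were called, against 143 and 1 in DESeq2, 228 and 1 on the compared libraries alone, and 25 to 343 and 0 to 1 leaving out 1 library each. For FGF in knockout cells, 292 genes and 1 member were called, against 714 and 3 in DESeq2, 23 and 0 on the compared libraries alone, and 120 to 950 and 1 to 2 leaving out 1 library each. RLE scaling, limma-voom and the replicate block each called 2 members there, adding Hmox1. Leaving out the library labelled knockout replicate 2 gave the upper end of each range of genes, and leaving out control with FGF replicate 2 as well gave 210 genes and 1 member, 356 and 1, and 1428 and 3. The cause of these moves was not tested. Of the values of single members under alternatives, 1014 stayed on their side of the threshold, 25 passed it newly and 1 no longer passed it, Slc7a11 for FGF on the knockout libraries alone. Between compared groups, the deviations of same-numbered libraries from their group means correlated at -0.09 to 0.08. These pairs did not include knockout without FGF against control with FGF. Across all groups, 7 of 12 libraries correlated best with a library of their own number. Whether replicates are paired cannot be told from these values. At 85 to 676 counts per library, Slc7a11 is the member whose values depth limits most.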

Other observations

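Beside the genes named by rule, 3 listed genes were nearly absent from knockout cells, and they were picked after their values were seen. Gstk1, a glutathione transferase of the kappa class, had 0 counts in the 3 knockout libraries with FGF and 63 in the 3 control libraries with FGF, at least 19.7-fold lower at a floor of 3 counts over the group. Without FGF it had 1 count in knockout and 41 in control, a ratio of 0.0263 (95% exact counting interval 0.00065 to 0.155). Akr1c13, an aldo-keto reductase, had 3 counts in knockout with FGF and 114 in control with FGF, and 2 in knockout and 110 in control without FGF. Cbr3, a carbonyl reductase, had 1 count in knockout with FGF and 55 in control with FGF, and 3 in knockout and 42 in control without FGF. These intervals and floors cover counting error only. With Gstk1 at its bound, the median of the other glutathione genes with FGF was again 0.06.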
